A study of Caenorhabditis elegans with 2 samples.

Results

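nhr-41 encodes a nuclear receptor of Caenorhabditis elegans, and the values below describe where the tagged protein was recovered at and around its own gene. The gene (WBGene00022423) lies on the plus strand of chromosome IV at 1386215 to 1399353, a length of 13139 bp (genome build ce11, 1-based coordinates), and was taken with 10 kb on both sides, IV 1376215 to 1409353. Every peak whose summit, the position of its highest signal, fell in these 33.1 kb was collected from 8 deposited peak lists. They numbered 126 of 175723 peaks over the lists, in which most sites recur. The conservative list, the shorter of the 2 thresholded lists that the authors made from both replicates, held 4 of them out of 1069.

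Chromatin immunoprecipitation followed by sequencing (ChIP-seq) was carried out on whole L4 larvae, the stage before adulthood, of strain RW12221. Its allele st12221[nhr-41::TY1::EGFP::3xFLAG] IV is a CRISPR insertion that joins a TY1 epitope, the fluorescent protein EGFP and FLAG epitopes to NHR-41 in place. The animals had been bleached and starved as L1 larvae, were 48.5 h old, and gave 2 biological replicates of 1 group, precipitated through GFP from chromatin sonicated to between 200 and 800 bp. No untagged, mutant or other-stage group was analysed here, so there was no comparison between conditions and no test, and with whole animals occupancy in more cells and stronger occupancy per cell cannot be told apart.

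NHR-41 is related to the vertebrate orphan receptors TR2 and TR4, which bind direct repeats of the sequence AGGTCA as dimers. A transcription factor that occupies its own gene can take part in feedback on its own expression, a common arrangement in regulatory networks. nhr-41 also hosts a tRNA gene. RNA polymerase III transcribes such genes from a promoter inside the gene, made of an A box and a B box, and ends transcription at runs of T.

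The summit windows of 3 of the 4 conservative peaks and a stretch of intron 3 are shown because the results below turn on their letters. Windows reach 75 bp to each side of the summit (151 bp) on the plus strand. Capitals mark matches on either strand to AGGTCA and to TGATAA, one form of the site of GATA factors. Read from the plus strand, a minus-strand TGATAA appears as TTATCA and a minus-strand AGGTCA as TGACCT. The intron stretch is on the minus strand, the strand of the tRNA gene, and starts at the base after that gene; its capitals mark runs of at least 4 T. Sequences are from RefSeq, assembly WBcel235, which is ce11.
Farther upstream peak, chrIV:1377766-1377916: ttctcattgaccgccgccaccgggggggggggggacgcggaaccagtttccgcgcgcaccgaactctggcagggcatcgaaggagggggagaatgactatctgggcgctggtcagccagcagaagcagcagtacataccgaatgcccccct
Nearer upstream peak, chrIV:1379072-1379222: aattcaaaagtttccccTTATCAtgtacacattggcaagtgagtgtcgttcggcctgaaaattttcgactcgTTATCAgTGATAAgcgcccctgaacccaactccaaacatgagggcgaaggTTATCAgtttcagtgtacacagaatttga
Intron 4 peak, chrIV:1389702-1389852: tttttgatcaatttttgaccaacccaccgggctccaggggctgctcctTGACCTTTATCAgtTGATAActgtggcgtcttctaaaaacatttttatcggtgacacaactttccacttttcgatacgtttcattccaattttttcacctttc
Intron 3 after the tRNA gene, chrIV:1388151-1388215: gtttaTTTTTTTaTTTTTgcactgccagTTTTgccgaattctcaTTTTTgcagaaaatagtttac

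The 4 conservative peaks stood in 2 pairs, one upstream of the gene and one in its introns. The upstream summits lay 8374 bp and 7068 bp before the first annotated transcript start and 1306 bp from each other. The intronic summits lay in introns 3 and 4 of the longest transcript, 1549 bp apart. The closest annotated start of a protein-coding gene was one of nhr-41 for each of the 4. The next closest protein-coding gene was col-105, a collagen gene, at 18.6 and 19.9 kb from the upstream summits. For the intronic summits it was spp-31, a saposin-like gene, at 18.3 and 16.8 kb. Genes of other classes were not counted here, and the microRNA gene mir-4937 lies between the upstream summits and nhr-41.

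The strongest peak of the window was the nearer upstream one, at IV 1379074 to 1379222. Its signal, the value the authors' peak caller gave (its scale is not stated in the labels or files), was 257, which ranked 5 of 1069 in the conservative list and 1 of the 170 conservative peaks on chromosome IV. The list's median signal was 82.8, so the ratio of this peak to the median was 3.11. Each replicate has a ranked list of its own, and there the site reached 84.6 in replicate 1, rank 34 of 38647, and 171 in replicate 2, rank 5 of 35958. The mean was 128 ± 61.2 (SD, n = 2), and the signal of replicate 2 divided by that of replicate 1 was 2.02. The peak was high in both replicates, and it stood in both of their thresholded lists. At 149 bp it was narrow: 26 of the 1069 conservative peaks were narrower than the usual 284 bp, and 15 of the 20 with the highest signal were among these.

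The farther upstream peak, at IV 1377699 to 1377982, had a signal of 99.6, rank 271 of 1069. Its signal was 54.3 in replicate 1 and 43.8 in replicate 2, with a mean of 49.1 ± 7.40 (SD, n = 2). Replicate 1 was the higher one here. Scores express the irreproducible discovery rate (IDR), an estimate of how reproducibly a peak ranks in 2 peak sets; they stop at 1000, and 830 was the lowest in each thresholded list. The score was 1000 in the list of replicate 1 and 536 in that of replicate 2, so the peak was absent from the thresholded list of replicate 2. Its summit window was 64.9% G or C, against a median of 47.0% over conservative windows and 55.6% at their 90th percentile, and it includes the run of G visible in the first sequence.

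The intron 3 peak, at IV 1388086 to 1388369, had its summit inside the tRNA gene. Its signal was 94.0, rank 343 of 1069. The replicates gave 50.8 and 50.2, a mean of 50.5 ± 0.407 (SD, n = 2), the closest replicate values of the 4 peaks, and the site was in both thresholded lists of single replicates.

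The intron 4 peak, at IV 1389635 to 1389918, had a signal of 89.2, rank 422 of 1069. Its replicates were far apart, at 23.5 in replicate 1 and 65.0 in replicate 2, with a mean of 44.2 ± 29.4 (SD, n = 2). In the list of replicate 1 it had a score of 15, the lowest that list holds, and in that of replicate 2 it had 1000. Its conservative score was 847, and 33 conservative peaks had a lower one. The ranked list of both replicates also gave 847. The other thresholded list and the other ranked list of both replicates gave this peak 1000. The thresholded list of replicate 1 alone did not include it.

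**Figure D1:**
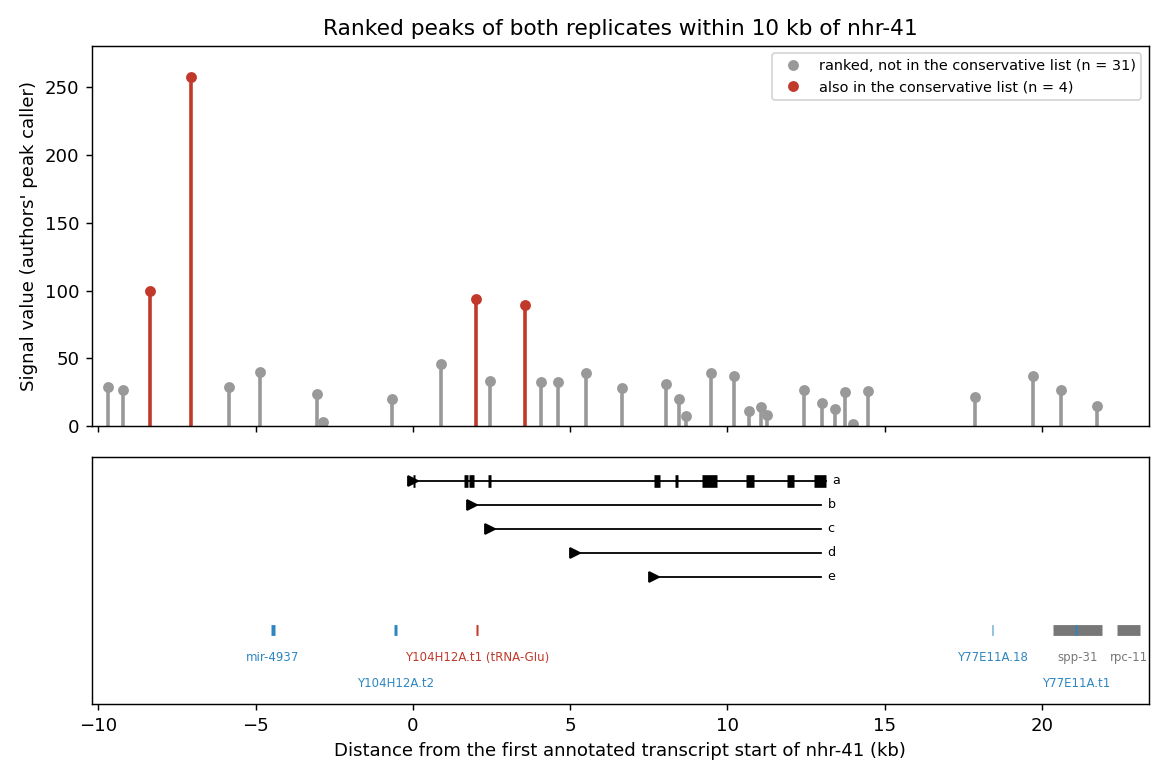
Signal value of the 35 peaks of the ranked list of both replicates (vertical axis) against the distance of the summit from the first transcript start of nhr-41 in kb, over the 5 transcripts (exons drawn for the longest), other genes below. The 4 peaks that are also in the conservative list (red) reach 89.2 or more, and the other 31 (grey) reach at most 45.7.

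The ratio of replicate 2 to replicate 1 differed between the 4 peaks. A total of 1053 conservative peaks had a matching peak in both ranked lists of single replicates. Some neighbouring conservative peaks matched the same replicate peaks, and each was counted. The median ratio was 1.25, with 80% of the 1053 between 0.841 and 1.83. The farther upstream peak had a ratio of 0.807, and 92.1% of the peaks were higher. The intron 3 peak had a ratio of 0.989, with 78.2% higher. The nearer upstream peak was above the upper of these bounds, with 6.17% of peaks higher than its 2.02, and the intron 4 peak had a ratio of 2.77, which 3 of the 1053 exceeded.

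**Figure D2:**
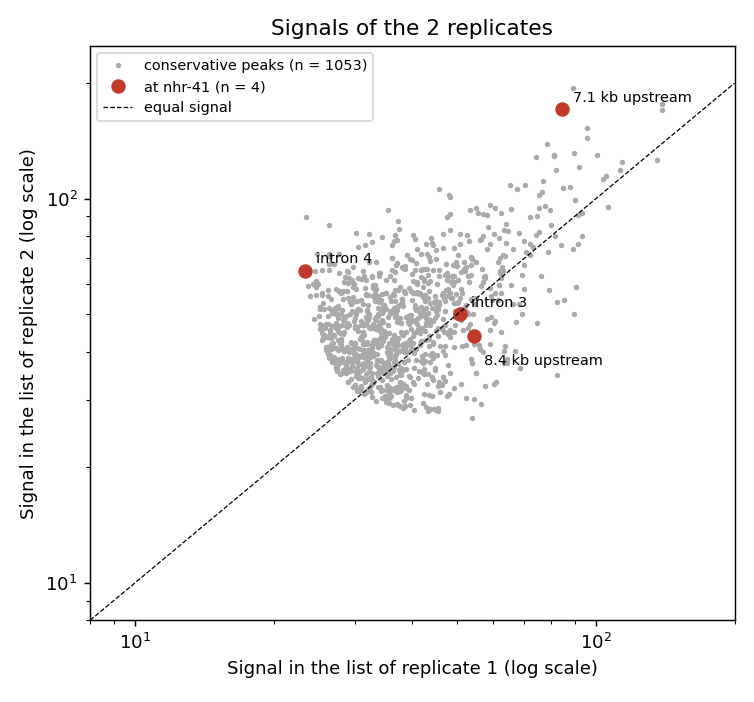
Signal in the list of replicate 2 against signal in the list of replicate 1, both on log scales, for the 1053 conservative peaks with a peak in each list (grey) and the 4 at nhr-41 (red). The intron 4 peak, at 23.5 and 65.0, lies at the left edge of the cloud, and the intron 3 peak and the farther upstream peak lie on or below the line of equal signal.

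The thresholded lists of single replicates each held 3 peaks of the window, out of 347 for replicate 1 and 676 for replicate 2, and they had 2 in common, the nearer upstream peak and the intron 3 peak. The ranked lists, which also hold peaks under the threshold, gave 26 peaks of 38647 for replicate 1 and 21 of 35958 for replicate 2. Of the 26, 14 were overlapped by a peak of replicate 2, which is 53.8%, against 38.9% over the whole list. Of the 21, 14 were overlapped by a peak of replicate 1, which is 66.7%, against 41.7%. These shares describe 1 window and were not tested.

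**Figure D3:**
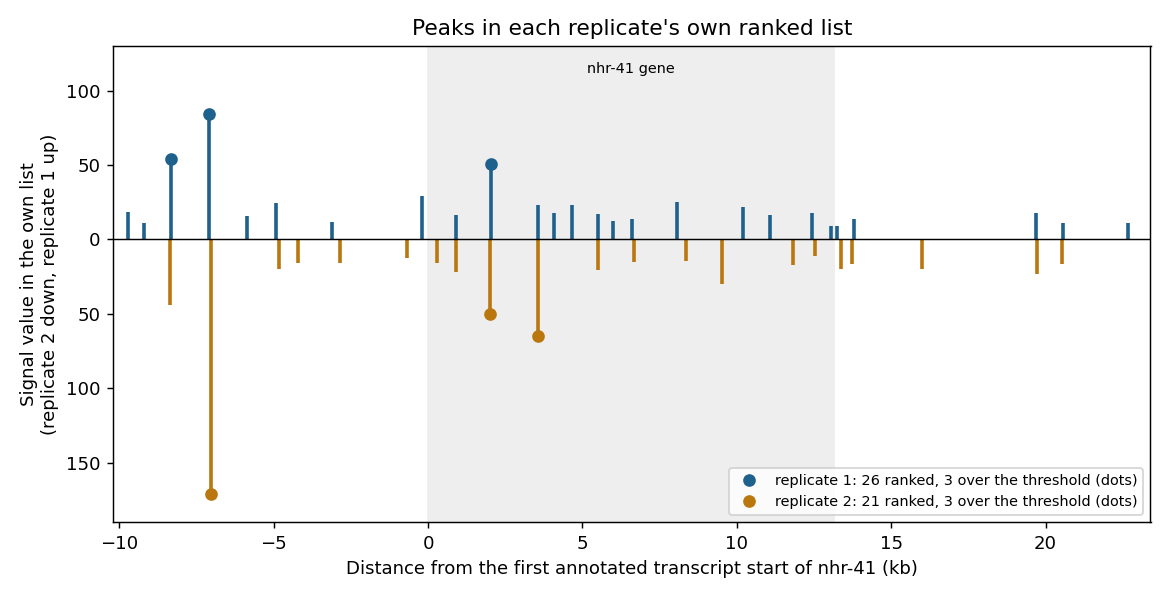
Signal of each peak in the ranked list of replicate 1 (26 peaks, upward) and of replicate 2 (21 peaks, downward) against the distance from the first transcript start of nhr-41 in kb, with dots on the 3 peaks of each replicate that passed the threshold. The nearer upstream peak reaches 84.6 and 171, and the intron 4 peak passed in replicate 2 alone.

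Few genes had as many conservative peaks nearby. Windows drawn the same way around all 19973 protein-coding genes held at least 1 conservative summit for 3961 genes (19.8%) and at least 4 for 34 genes (0.17%). Those 34 lay in 16 separate regions, since neighbouring genes share peaks, and the highest count was 11. The window of nhr-41 is longer than the median of 22.0 kb; among the 655 windows of 30 to 36 kb, 4 (0.611%) held at least 4. A conservative peak with a signal of at least 257 lay in the windows of 19 genes (0.0951%), which shared 5 such peaks. Among 269 genes named nhr, the family of nuclear receptor genes, 33 had at least 1 conservative summit in their window (12.3%), nhr-41 was the 1 with 4, and the next highest count was 2. The next highest signal in that family was 167, at nhr-88.

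**Figure D4:**
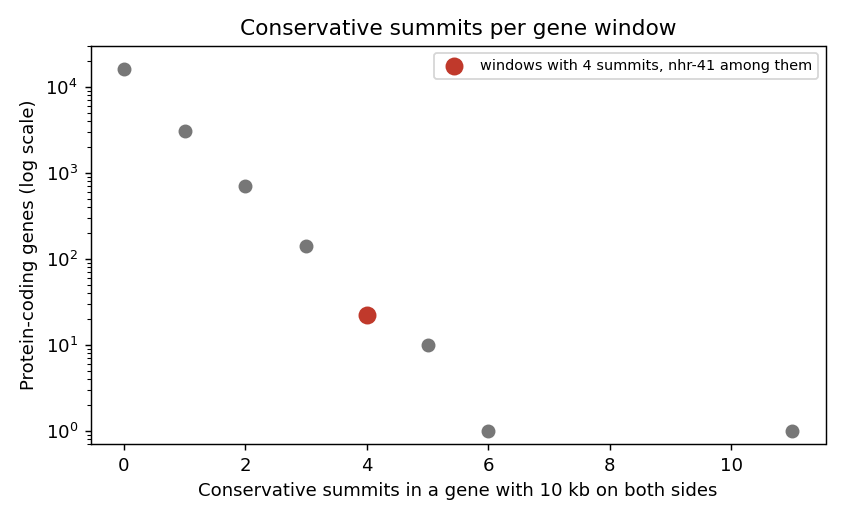
Number of protein-coding genes (vertical, log scale) by the number of conservative summits in the gene with 10 kb on both sides (horizontal). The class of nhr-41, 4 summits, holds 22 genes (red), and 12 more genes hold 5 or more.

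Beyond the window the chromosome was empty of conservative peaks for long stretches. The nearest other conservative summits lay at IV 1094370, 283 kb to the left, and at IV 1711288, 322 kb to the right. The 4 peaks therefore stood alone in 617 kb. The median gap between neighbouring conservative summits was 53.3 kb, and of 1063 gaps 70 were at least as long as the left one and 55 at least as long as the right one. Widening the window from 10 to 20 kb on both sides added no conservative peak.

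The ranked list of both replicates gave a finer and less certain picture, with 35 peaks of 48276 in the window. Of these, 9 were upstream of the gene, 14 in introns, 4 in exons and 8 downstream. Exons make up 15.7% of the gene. Their median signal was 27.1, against 25.0 over the list, and 22 of the 35 were above the list's median. A score of 26, the lowest in the list, was held by 11 of them. The window had 10.6 ranked peaks per 10 kb, against a median of 4.74 over protein-coding genes, and 1.16% of genes had more.

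The peak with the highest signal outside the conservative list was in intron 1, at IV 1386966 to 1387249, 893 bp after the first transcript start. Its signal was 45.7, rank 3367 of 48276, and its score 197. The replicates gave 16.6 and 21.9, a mean of 19.3 ± 3.69 (SD, n = 2). Its summit window was 27.2% G or C and held none of the motifs searched.

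Among the annotated starts of nhr-41, only those of transcripts b and c had a conservative summit within 500 bp. Its 5 transcripts, a to e, start at IV 1386215, 1388097, 1388656, 1391385 and 1393899. A start window ran from 1000 bp before to 200 bp after a start, and 535 of all protein-coding genes (2.68%) had a conservative summit in one. nhr-41 had 1 such summit, that of the intron 3 peak, 131 bp after the start of transcript b and 428 bp before that of transcript c. The summit that met this rule was thus the one inside the tRNA gene, and the start windows of a, d and e held none.

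Within 500 bp of the start of transcript a, neither the conservative list nor the ranked list of both replicates had a summit. The other ranked list of both replicates had 1 peak there, with a signal of 37.8, a score of 185 and its summit 227 bp before the start. Replicate 1 had a signal of 29.3 at 201 bp before the start, and replicate 2 had 16.1 with a score of 19, the lowest in its list, at 289 bp after it. Beside the tRNA peak, transcript c had a ranked peak of 33.7 with a score of 75, its summit 24 bp after the start and in exon 4 of the longest transcript. Transcript d had a ranked peak of 39.3 at 332 bp after its start, with 16.8 in replicate 1 and 20.3 in replicate 2. Transcript e had one of 31.1 at 382 bp, with 25.2 in replicate 1 and no summit within 500 bp in the ranked list of replicate 2. The ranked list of both replicates pairs this peak with signals of 25.2 and 9.80, in columns that carry no replicate number.

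The end of the coding sequence, at IV 1399203, was examined because the allele's name places the tag after the receptor, and the reference assembly does not contain the tag. No conservative summit lay within 500 bp of it. The ranked list of both replicates had 2 there, of which the higher had a signal of 17.0, at the 23.3 percentile of its list. The highest values of single replicates were 9.25 in replicate 1 and 19.7 in replicate 2.

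The tRNA gene under the intron 3 peak is Y104H12A.t1 (WBGene00023202), a tRNA-Glu gene of 72 bp at IV 1388216 to 1388287, on the minus strand and so antisense to nhr-41. It lies in the 457 bp of intron 3, at IV 1388151 to 1388607. The summit was 59 bp from the 5′ end of the tRNA gene and 12 bp from its 3′ end. A match to the B box spanned positions 51 to 61 of the gene, counted from its 5′ end, and the GTTCGA at the core of that box was 6 bp from the summit. After the gene, the printed minus-strand sequence has runs of 7, 5, 4 and 5 T, which begin 6, 14, 29 and 45 bp past its end.

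A conservative summit inside a tRNA gene was common: 152 of 612 nuclear tRNA genes had one (24.8%), and 13 of 41 tRNA-Glu genes (31.7%). Over the 152 the median signal was 87.0, and 56 had more than the 94.0 of the nhr-41 tRNA gene. The same 72 bp occur at 15 tRNA genes in the genome, of which 8, this one included, had a conservative summit inside. Reads that lie wholly within these letters cannot be placed by sequence alone. Of the words of 31 bases in the intron 3 peak, 78.0% occurred once in the genome, whereas each of the other conservative peaks of the window had 100%. Since the 72 bp recur, none of the words wholly inside the tRNA gene, where the summit lies, occurs once. Those that occur once therefore all reach into its flanks, for which the share was not counted separately.

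Motifs differed between the 4 summit windows. The motifs searched, on both strands, were AGGTCA and its longer form AAGGTCA, the GATA factor site TGATAA (no other form of it), the E-box CACGTG, the B box core GTTCGA and the repeat GAGAG. Direct repeats of AGGTCA spaced by 0 to 5 bases, with up to 2 mismatches, were also searched. The nearer upstream window held 4 TGATAA, with centres 0, 6, 50 and 56 bp from the summit. In the conservative list 22.7% of windows held at least 1 TGATAA and 2.06% at least 3, and the highest count was 5. The intron 4 window held 2 TGATAA, with centres 18 and 10 bp from the summit, and 8.23% of conservative windows held at least 2.

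AGGTCA was found once among the 4 windows, in intron 4 at IV 1389750 to 1389755 on the minus strand, 24 bp from the summit. It was part of an AAGGTCA, which shares 1 base with the first TGATAA of that window. AGGTCA was in 10.2% of conservative windows and AAGGTCA in 4.12%. The direct repeats were in none of the 4, and each spacing was in 0.655% to 2.15% of conservative windows. The intron 3 window held GTTCGA, found in 19.6% of conservative windows, and the farther upstream window held none of the motifs. E-boxes, in 6.64% of conservative windows, and GAGAG, in 45.3%, were in none of the 4.

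In both windows with TGATAA, a pair of these sites lay on opposite strands and pointed away from each other. TTATCA was followed by TGATAA after 1 base in the nearer upstream window and after 2 bases in the intron 4 window, as the capitals in the printed sequences show. This arrangement was noticed after the sequences were seen, so its counts are a description only. With 0 to 6 bases between the sites, it occurred at 424 places in the nuclear genome, in 4 of 1069 conservative windows (0.374%) and in 39 of 48276 ranked windows (0.0808%). Of the 4 conservative windows, 2 were those at nhr-41. The others were at IV 16775042 to 16775325, with a signal of 95.6 and closest to the start of Y43D4A.5 at 571 bp, and at III 11727059 to 11727342, with 84.4 and closest to Y41C4A.12 at 511 bp.

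Over all 35 ranked peaks of the window, AGGTCA was in 4 summit windows (11.4%, against 4.66% over the list) and TGATAA in 5 (14.3%, against 13.1%). GTTCGA was in 9 (25.7%, against 6.74%), 1 of them the tRNA peak. GAGAG was in 2 (5.71%, against 23.8%). Several ranked peaks overlap each other, and these shares were not tested.

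Apart from nhr-41 and this tRNA gene, the genes in the window had no conservative summit inside them or within 500 bp. mir-4937, a microRNA gene at IV 1381705 to 1381814, had a ranked peak with a signal of 40.2 and a score of 289, with 24.3 in replicate 1 and 20.02 in replicate 2. The tRNA pseudogene Y104H12A.t2 had a peak of 20.2 with a score of 26, the lowest, in the ranked list of both replicates, and one of 37.8 with a score of 185 in the other such list. Its values in single replicates were 29.3 with a score of 191 in replicate 1 and 12.6 with a score of 19 in replicate 2. The peaks of 37.8 and 29.3 are the same ones given above before the start of transcript a. spp-31 had 2 summits inside it in the ranked list of both replicates, with signals of 26.8 and 15.4, both with a score of 26, and its highest values were 10.8 in replicate 1 and 16.7 in replicate 2. The peak of 26.8 also lay within 500 bp of Y77E11A.t1, a tRNA pseudogene inside spp-31. The non-coding RNA gene Y77E11A.18 had 2 summits within 500 bp in the other ranked list of both replicates, the higher with a signal of 14.3, and none in the remaining ranked lists. rpc-11, which encodes a subunit of RNA polymerase III and starts outside the window, had a peak in the ranked list of replicate 1 alone, with a signal of 10.7.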

How the data were processed

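Each of the 2 biological replicates had a ranked and a thresholded peak list, and both together had 2 ranked, 1 thresholded and 1 conservative list, all on ce11. Per the labels, the precipitation used an antibody to GFP, although the antibody field names nhr-41. Per the submitters' processing notes, each list came from replicate and control alignments. The aligner and peak caller were not given in the sources used here. As deposited, the score is the authors' IDR score, with an upper limit of 1000. The deposited signal is the value of the authors' peak caller. Both served to describe, rank or filter within a list. Signals from the 2 replicates' own ranked lists were also averaged and divided by each other. Whether those 2 lists share a scale is not known, so these means, SDs and ratios are descriptive only. Summits were read from the deposited offsets. Read depth is unknown, and no limit from depth is given.

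Gene models were those of Ensembl release 115 and tRNA products and sequence those of RefSeq WBcel235; mitochondrial genes were left out. The replicate signal of a site was taken from the overlapping peak in that replicate's own ranked list. A further 6 columns of signals of other peak sets were not used. Means and SDs have n = 2. These samples measure only the spread between 2 preparations, along with any difference in scale between their lists. Named peaks were every thresholded peak in the window and the 5 ranked ones with the highest signal. Named genes were nhr-41, the tRNA gene in it and genes of the window with a thresholded summit; other genes were named after their values were seen. The gene, its window, the motifs and the alternatives were chosen with earlier results of these data known. Counting and matching were tested on simulated peaks. Python 3.11.15, pandas 2.3.3, numpy 2.4.6 and matplotlib 3.10.9 were used.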

Additional observations from a re-analysis of the deposited data

How the results depend on the processing

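The count of 4 conservative peaks was also 4 in the other thresholded list of both replicates, with 20 kb on both sides, with 1 bp overlap in place of the summit rule and with 1 peak per pair of replicate peaks. It was 3 at a score of 1000 in the conservative list, which removes the intron 4 peak, and 3 in each replicate's own list. With 5 kb on both sides it was 2, because both upstream peaks lie beyond that distance. The 35 ranked peaks became 30 in the other ranked list and 31 with 1 peak per pair, 27 and 49 with 5 and 20 kb, and 21 to 26 in the lists of single replicates. The strongest peak stood at the 99.988 percentile of both ranked lists of both replicates, and at 99.915 to 99.989 in those of single replicates. All 4 conservative peaks had the same coordinates and signals in every list of both replicates, although the score of the intron 4 peak differed between them. Agreement between those lists therefore repeats the same calls and is not independent. Start windows held 1 summit with 500 bp upstream and 2 with 2000 bp, which reaches the intron 4 peak; 1.90% and 3.89% of genes then had one. The replicates shared 13 peaks with a summit inside the other peak or with 50% reciprocal overlap, in place of 14. With motif windows of 50 or 100 bp, chosen after seeing the data, TGATAA was again in 2 of the 4 conservative windows. No paired analysis was possible because there was 1 group. With 2 replicates and unknown depth, a site absent from a list was not detectable under that list's rules, which does not show that it is unoccupied.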
